A study of Homo sapiens with 2 samples.

Results

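Messenger RNA of the Nodal signalling circuit was compared between a pair of substates of the human embryonic stem cell line H9. The set was fixed by name as 10 genes, namely the ligands NODAL and GDF3, the co-receptor CRIPTO (also written TDGF1), the antagonists LEFTY1 and LEFTY2, the receptors ACVR1B and ACVR2B, the transcription factor FOXH1, and the feedback regulators SMAD7 and SKIL. Their RefSeq accessions led to 11 probes, of the 31104 probes and 22439 genes that could be named on the array. LEFTY2 had a pair of probes, and the other 9 genes had 1 probe each. The study separated the substates by their colonies and by staining. In substate 1 the staining was strong for R-10G (a surface keratan sulphate) and nearly absent for vimentin. In substate 2 it was weak for R-10G and strong for vimentin. For both samples the labels give H9 cells in TeSR-E8 medium on Matrigel, a basement membrane preparation, with passage 35 for the substate 1 RNA and passage 50 for the substate 2 RNA. Per the study's methods the cells had been kept on Vitronectin XF and were put on Matrigel at passage 35, so the time that the substate 1 cells had spent on Matrigel is not known. Each substate had 1 single-colour array, so passage, time on Matrigel and substate cannot be told apart, no test between the substates was possible, and no difference below has a replicate check.

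Nodal is a secreted ligand of the TGF-beta family. It binds a type II receptor such as ACVR2B and the type I receptor ACVR1B, and it needs the membrane-anchored co-receptor CRIPTO to do so. The activated receptors phosphorylate SMAD2 and SMAD3, which enter the nucleus with SMAD4 and act with partners such as FOXH1. LEFTY1, LEFTY2, SMAD7 and SKIL are induced by the pathway and restrain it, the LEFTY proteins outside the cell and the others inside it. In human embryonic stem cells this signalling sustains NANOG and pluripotency, and its inhibition favours neural ectoderm.

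Per the background flags of the scanner output, all 11 member probes lay well above background on both arrays, as did 51.3% of all 58201 probes. No spot was saturated. Signals are given as the processed signal of the scanner, in arbitrary units, with the error that the scanner software assigned to each, which was at most 11.3% of the signal for these probes. For the comparison the log2 signal of each array was set relative to the 75th percentile of its own probes, which was 313.7 for substate 1 and 275.4 for substate 2. Subtracting these percentiles raised substate 2 by 0.19 relative to substate 1 on the log2 scale. The error of a difference, carried over from the scanner errors, was 0.20 to 0.23 for the member probes. Spot noise was smaller for a typical probe. A difference between a pair of single spots had an SD of 0.07, from the median over probes printed 10 times. A dim probe can be noisier. The pathway gene INHBA, at 74.0 in substate 1 and 32.7 in substate 2, had log2 SDs between its spots of 0.08 and 0.20. Neither error covers the cells, the RNA or the labelling. The probes of different genes differ in how they bind, so levels are compared only between the arrays for the same probe.

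The labelled cell type was checked on 10 marker genes of pluripotent cells. The 9 that had a named probe gave 10 probes, all well above background on both arrays, with differences from -0.35 to 0.42 between the substates. The neural ectoderm markers LHX2, POU3F2 and SOX1 read higher in substate 2. The 8 probes of that list summed to a signal of 132 in substate 1 and 622 in substate 2, and 1 and 3 of them were well above background. Most of the sum was LHX2, 5.01-fold higher in substate 2, and POU3F2, at least 13.3-fold higher, while SOX1 was at least 1.71-fold higher. PAX6, NEUROG2 and ZIC1 were well above background on neither array. The mesendoderm markers summed to 95.5 and 122 over 8 probes, of which only that of FOXA2 was well above background, with a difference of 0.77. Of the fibroblast markers 2 of 7 probes (COL1A1 and THY1) were well above background, and DCN, LUM, COL3A1 and POSTN were not. The sums were 49215 and 39859, of which THY1 alone gave 48204 and 39218. Of the trophoblast and amnion probes 1 of 6 was well above background in substate 1 and 2 of 6 in substate 2. The sums were 3059 and 3030, of which KRT7 alone gave 3039 and 2988. CGA, the probe well above background only in substate 2, was at least 2.12-fold higher there. The part of these markers in the differences below was not tested. The labels do not say whether the RNA came from a whole culture or from selected colonies. In RNA pooled over many cells, fewer cells that express a gene cannot be told apart from less RNA per cell.

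The ligands and the co-receptor were lower in substate 2, the LEFTY antagonists were higher, and all of these differences were small. None of the 11 member probes passed the Z-score limits of 2, which lay at 2.53-fold higher and 2.29-fold lower, and the largest Z-score of a member was 0.84 in size. Over all probes 6.33% were past these limits, and over the 29883 probes well above background on both arrays 0.977% were. None of the members differed by 2-fold either, against 3.22% of the 33166 probes with a signal well above background in either substate. The differences of the members ran from -0.46 to 0.57 on the log2 scale, with 6 probes higher and 5 lower. The median over the 10 genes was 0.07, beside 0.08 over the 16001 genes measured on both arrays. When each difference was set against its own scanner error, 2 member probes were higher by more than 2 errors, 1 was lower by more than 2 errors, and 3 lay within 1 error of no difference. By that margin 10.6% of all measured probes were higher and 10.1% were lower, so the members were not set apart by these counts.

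**Figure D1:**
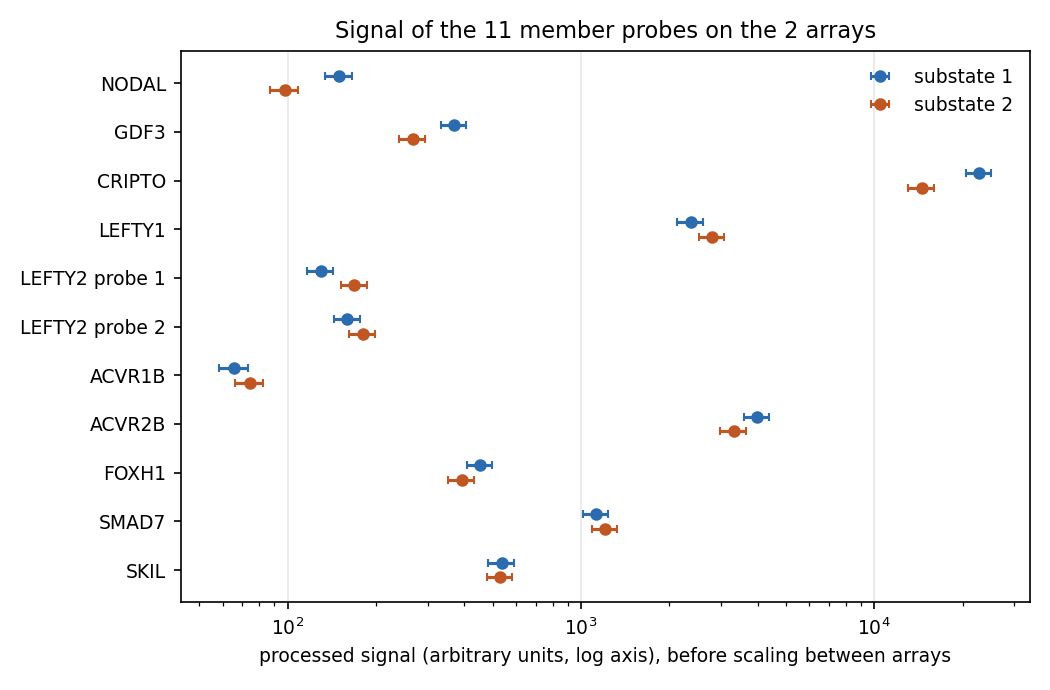
Processed signal (arbitrary units, logarithmic axis) of the 11 member probes on the substate 1 array and the substate 2 array, before scaling between the arrays; bars are the scanner's error of each signal. NODAL, GDF3 and CRIPTO read lower on the substate 2 array, and LEFTY1 and both LEFTY2 probes read higher.

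NODAL, the ligand that gives the pathway its name, had a signal of 149.7 ± 15.4 (scanner error) in substate 1 and 97.6 ± 10.6 in substate 2. Relative to the 75th percentile the log2 signal was -1.07 and -1.50, a difference of -0.43 ± 0.22, or 1.35-fold lower in substate 2. In units of its scanner error this difference was -1.99. Under normexp background correction, which used another signal and an offset of 50, it was -0.20. The scanner error does not apply to that value. GDF3, a ligand of the same family that is abundant in pluripotent cells, read 369.6 ± 37.1 and 266.8 ± 26.9. Its difference was -0.28 ± 0.21, or 1.22-fold lower, which was -1.38 errors. Both ligands were thus lower in substate 2, each by less than 2 errors, and neither had another probe named here.

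CRIPTO, the co-receptor that Nodal and GDF3 require, was the brightest member probe, at 22751 ± 2275 in substate 1 and 14518 ± 1452 in substate 2. The log2 signal was 6.18 and 5.72, a difference of -0.46 ± 0.20, or 1.38-fold lower, which was -2.26 errors. Probes as bright as this spread little between the arrays. Among the 1245 probes within 1 log2 unit of its mean signal, the differences had a median of 0.21 and an SD of 0.26, and only 1.93% had a lower difference than CRIPTO. Among all 29883 measured probes, in contrast, 9.99% did. For the dimmer NODAL probe the corresponding shares were 15.7% of 7709 probes of like signal and 11.2% of all measured probes, so the distance of NODAL from probes of its own brightness was smaller. CRIPTO has a close gene copy, CRIPTO3, and whether the probe also binds its transcript was not tested.

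Promoters are shown because SMAD proteins and FOXH1 are the factors through which the pathway reaches its target genes. Those of NODAL, GDF3 and CRIPTO are printed, a choice made after the values had been seen. ACVR2B also read lower, by -0.08, and its window is not printed. RefSeq's table for the build GRCh38.p14 held a promoter for 7 of the 10 members, 11 windows in all, and the 250 bases before each start were used. Capitals mark a match, on either strand, to the SMAD half-element CAGAC or to the FOXH1 motif AATNNACA, in which N is any base. The NODAL window lies at chr10:70441682-70441931 on the minus strand and the GDF3 window at chr12:7695776-7696025 on the minus strand. The CRIPTO windows lie at chr3:46574285-46574534 and chr3:46577538-46577787 on the plus strand.
NODAL: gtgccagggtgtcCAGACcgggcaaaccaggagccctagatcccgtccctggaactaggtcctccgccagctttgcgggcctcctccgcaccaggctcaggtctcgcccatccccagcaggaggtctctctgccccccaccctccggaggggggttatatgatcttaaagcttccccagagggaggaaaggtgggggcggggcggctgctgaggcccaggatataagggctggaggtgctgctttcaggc
GDF3: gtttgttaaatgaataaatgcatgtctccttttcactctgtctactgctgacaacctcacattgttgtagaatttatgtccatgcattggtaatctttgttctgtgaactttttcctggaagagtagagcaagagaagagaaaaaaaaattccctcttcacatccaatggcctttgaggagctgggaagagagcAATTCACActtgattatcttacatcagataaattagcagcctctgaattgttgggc
CRIPTO, first start: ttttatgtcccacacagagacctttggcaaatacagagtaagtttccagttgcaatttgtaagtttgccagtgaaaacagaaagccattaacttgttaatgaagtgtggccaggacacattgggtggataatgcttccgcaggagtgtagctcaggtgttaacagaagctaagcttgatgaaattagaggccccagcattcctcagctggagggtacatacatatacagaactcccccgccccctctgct
CRIPTO, second start: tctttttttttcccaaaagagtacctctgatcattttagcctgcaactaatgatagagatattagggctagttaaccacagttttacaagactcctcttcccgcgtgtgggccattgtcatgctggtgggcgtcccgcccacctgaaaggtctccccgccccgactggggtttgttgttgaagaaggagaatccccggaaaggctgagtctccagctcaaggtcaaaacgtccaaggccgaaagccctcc
The NODAL window held 1 SMAD half-element, which begins 237 bases before the start. The GDF3 window held 1 FOXH1 motif, which begins 56 bases before the start, and neither CRIPTO window held a match. Of all 35116 promoters in the table, 38.0% held the half-element and 9.88% held the FOXH1 motif in the same 250 bases. Among the windows of the members 5 of 11 held the half-element, in NODAL, ACVR1B, SMAD7 and SKIL, and 1 of 11 held the FOXH1 motif. The palindrome GTCTAGAC, which joins a pair of SMAD elements, was in 0.182% of all promoters and in 0 of these 11 windows. These matches describe letters in a window and are not binding sites. LEFTY1, LEFTY2 and FOXH1 are named only.

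LEFTY1 and LEFTY2 encode secreted inhibitors that bind Nodal and its co-receptor. LEFTY1 had a signal of 2362 ± 236 in substate 1 and 2796 ± 280 in substate 2. Its log2 signal was 2.91 and 3.34, a difference of 0.43 ± 0.20, or 1.35-fold higher in substate 2, and this was 2.11 times the error. It was higher than the difference of 89.3% of all measured probes and of 91.3% of the 4539 probes of like signal. The dimmer LEFTY2 probe read 129.7 ± 13.3 and 168.8 ± 17.2, a difference of 0.57 ± 0.21, or 1.48-fold higher, which was 2.73 times the error and the largest among the member probes. It was higher than the difference of 94.9% of all measured probes. The brighter LEFTY2 probe read 159.4 ± 16.2 and 180.1 ± 18.3, a difference of 0.36 ± 0.21, or 1.29-fold higher, at 1.75 times the error. The LEFTY2 probes thus went the same way and lay 0.20 apart, about 1 scanner error. LEFTY1 and LEFTY2 are close copies that lie near each other on chromosome 1, so a probe of one may also read the other, and this was not tested. All 3 LEFTY probes read higher in substate 2 also before scaling, by factors of 1.18, 1.30 and 1.13.

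Because the scaling constant cancels in a comparison within the arrays, the change of the antagonists was also set against that of the ligands and the co-receptor. This grouping was chosen after the values had been seen, and it is a description. The 3 LEFTY probes had a mean difference of 0.45 and the probes of NODAL, GDF3 and CRIPTO one of -0.39, a gap of 0.85 ± 0.17 on the log2 scale. As a fold, this gap was 1.80. Since the grouping followed the values, the direction of the gap is not a test. Its error treats the probes as independent, although LEFTY2 enters with both of its probes and LEFTY probes may read each other. The gap was 0.86 ± 0.30 between LEFTY1 and NODAL and 0.89 ± 0.29 between LEFTY1 and CRIPTO. Centring or scaling an array by a single constant cannot move these gaps, but quantile normalisation, loess centring and normexp correction can. Between LEFTY1 and NODAL the gap was 0.73 under quantile normalisation and 0.73 under loess centring. The grouped gap was 0.87 under each of them, and that between LEFTY1 and CRIPTO was 0.95 and 0.96. Under normexp correction the gaps were 0.65 for the grouped probes, 0.57 between LEFTY1 and NODAL, and 0.83 between LEFTY1 and CRIPTO.

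**Figure D2:**
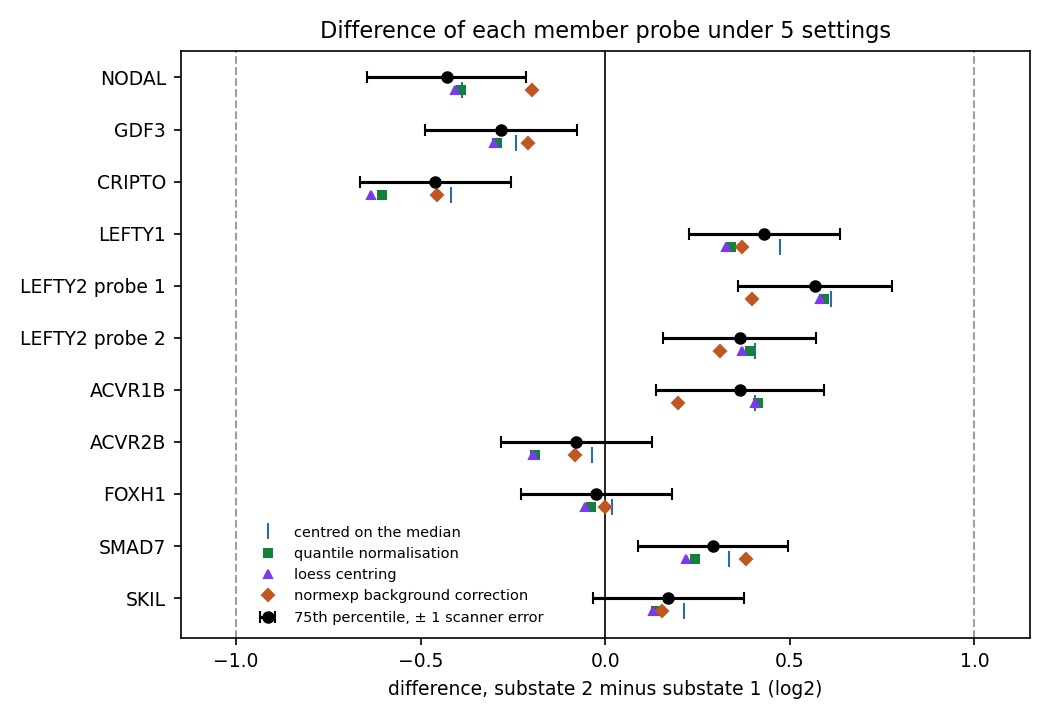
Difference of each member probe (log2, substate 2 minus substate 1) with the 75th percentile as reference (black, with 1 scanner error on either side) and under 4 other treatments of the signals; dashed lines mark 2-fold. NODAL, GDF3 and CRIPTO stayed below 0 and the LEFTY probes above 0 under these settings, whereas FOXH1 crossed 0.

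ACVR2B and FOXH1 were within 1 scanner error of no difference, and ACVR1B was not. ACVR2B, a type II receptor for activin and Nodal, had a signal of 3991 ± 399 in substate 1 and 3319 ± 332 in substate 2. The difference was -0.08 ± 0.20, or -0.38 errors. ACVR1B, the type I receptor, was the dimmest member probe, at 65.7 ± 7.42 and 74.3 ± 8.27, with a difference of 0.37 ± 0.23, or 1.29-fold higher. This was 1.60 times the error, and under normexp background correction the difference was 0.20. FOXH1, the winged-helix factor that carries SMAD complexes to DNA, read 453.4 ± 45.4 and 391.4 ± 39.3. Its difference was -0.02 ± 0.20 and turned to 0.02 when the arrays were centred on the median, so that it has no direction here.

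The feedback regulators inside the cell were higher in substate 2 by less than 2 scanner errors. SMAD7, the inhibitory SMAD that blocks the type I receptor, read 1126 ± 113 and 1210 ± 121, a difference of 0.29 ± 0.20, or 1.22-fold higher. SKIL, a corepressor of SMAD complexes, read 535.5 ± 53.6 and 529.2 ± 53.0. After scaling its difference was 0.17 ± 0.20, or 1.13-fold higher, although the unscaled signal was 0.988 times that of substate 1. The direction of SKIL therefore came from the scaling between the arrays.

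**Figure D3:**
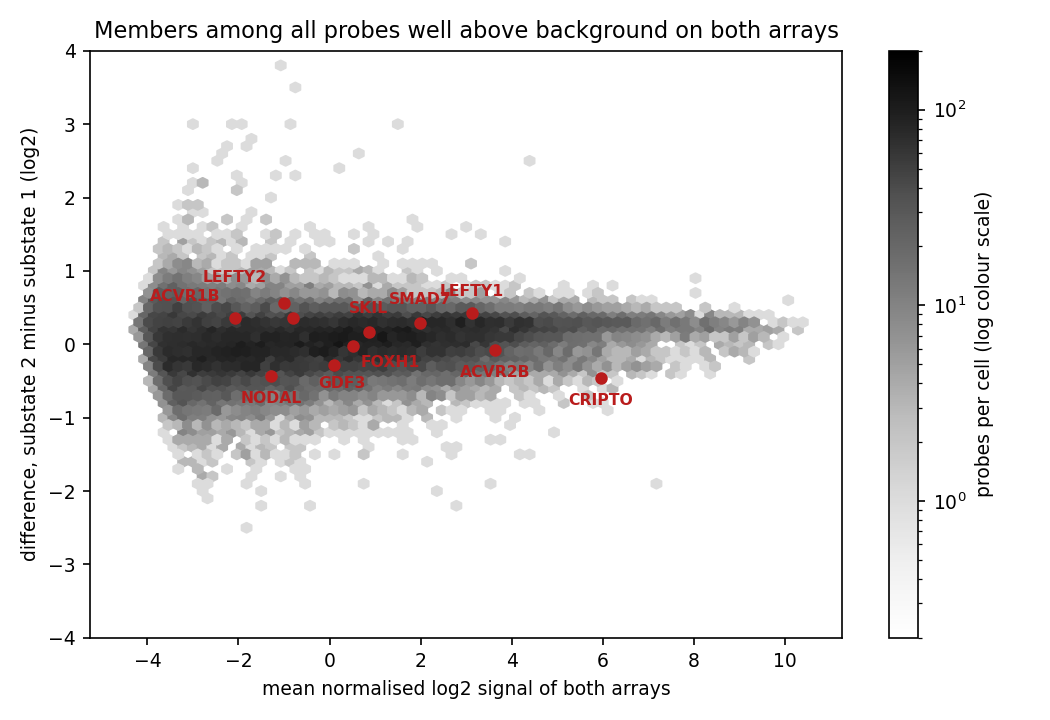
Difference (log2, substate 2 minus substate 1) against mean normalised log2 signal for the 29883 probes well above background on both arrays (grey, number of probes per cell on a logarithmic colour scale), with the 11 member probes in red; each LEFTY2 probe is a point. CRIPTO lies at the lower edge of the narrow band of bright probes, and the other members lie inside the bulk of the cloud.

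The rest of the pathway was described with 42 further genes of Nodal and activin signalling, which had 51 probes. Both arrays measured 32 of these genes, of which 18 were higher and 14 lower, and their median difference was 0.06. Of all 16001 measured genes 59.8% were higher, and the counts by role below are to be read beside that share. A probe past 2-fold was found for 1 gene higher (FST) and 1 gene lower (INHBA), 2 of 42 genes, beside 3.37% of the 16965 genes with a probe measured on at least 1 array. FST (follistatin), a secreted protein that binds activin and keeps it from its receptors, had a signal of 645.8 in substate 1 and 1444 in substate 2. It was 2.55-fold higher, with a difference of 1.35 ± 0.20 and a Z-score of 2.02, and it was the only one of these genes past the Z-score limits with a probe well above background. INHBA, which encodes the activin A subunit, was printed 10 times on each array. Its spots read 66.8 to 81.3 in substate 1 and 26.8 to 41.6 in substate 2, before scaling between the arrays. These spots repeat the same RNA within an array and are not replicates of a substate. INHBA was 2.00-fold lower, with a standard error over spots of 0.07 on the log2 scale, which is at the 2-fold limit and inside the Z-score limits. Under normexp correction it was only 1.29-fold lower, and under median, quantile or loess treatment 1.94- to 1.95-fold, so that its 2-fold call was lost under each of these.

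Among the ligands and their processing enzymes, INHBA included, 3 of 7 measured genes were higher and 4 were lower. PCSK5, a proprotein convertase, was lower by both measured probes, with differences of -0.62 ± 0.20 and -0.46 ± 0.23. The inhibin subunit INHA differed by -0.52 ± 0.29. TGFB1 went the other way, with 0.68 ± 0.21, or 1.60-fold higher. INHBB, TGFB2 and TGFB3 were not well above background on either array. Among the receptors 1 of 6 measured genes was higher and 5 were lower. The largest difference was that of ACVR1C, a type I receptor that Nodal can also use. One of its probes read 128.1 and 60.2, a difference of -0.90 ± 0.23, or 1.87-fold lower. Another ACVR1C probe was well above background only in substate 2 and was at least 1.69-fold higher there, and the remaining one was near background on both arrays. The probes of ACVR1C thus disagreed in direction, and its count among the lower receptors rests on the first probe. CFC1, a relative of CRIPTO, was not well above background on either array, and neither was CER1, a secreted Nodal antagonist. Of the 3 secreted antagonists measured on both arrays, FST included, 2 were higher and 1 was lower. The lower one was DAND5, with a difference of -0.21 ± 0.23.

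The SMAD proteins that carry the signal were close to the median of all genes, at 0.23 ± 0.21 for SMAD2, 0.19 ± 0.20 for SMAD3 and 0.08 for SMAD4 over 2 probes. Of the 10 intracellular attenuators 7 were higher and 3 were lower, with a median of 0.19, and LDLRAD4 had the largest difference, 0.63 ± 0.32. NANOG, a target that Nodal signalling sustains in these cells, read 11911 and 13991, a difference of 0.42 ± 0.20, or 1.34-fold higher. The 1596 probes of like signal had a median difference of 0.20, and 90.5% of them had a lower difference than NANOG. The mesendoderm genes EOMES, MIXL1 and GSC were well above background on neither array. The GSC probe had a Z-score of 2.27 but read only 6.94 and 17.3, and no fold is given for it (it was named after its values had been seen). These mesendoderm targets were therefore near background in both substates, whereas NANOG was bright in both.

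**Figure D4:**
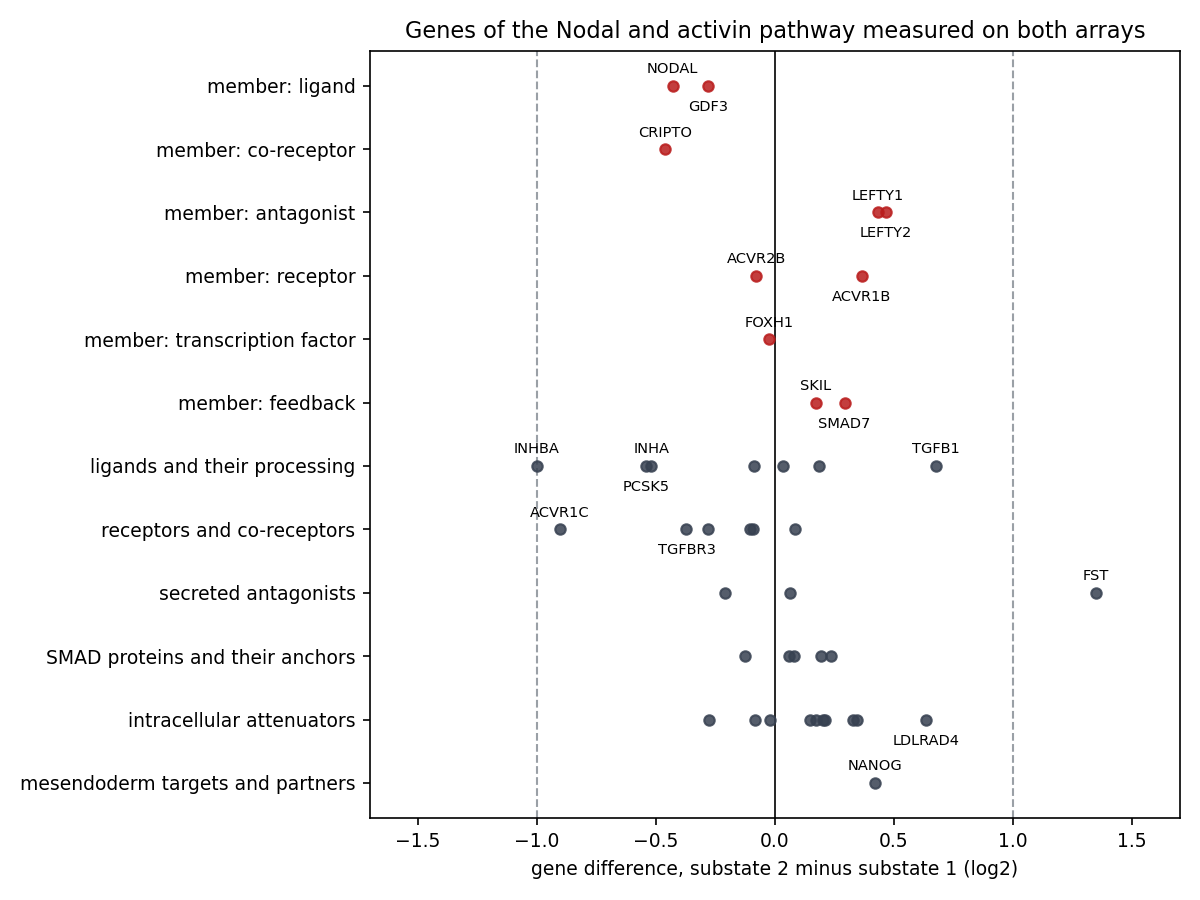
Gene differences (log2, substate 2 minus substate 1, mean over the probes measured on both arrays) for the 10 members (red) and the 32 measured genes of the rest of the pathway (dark), by role; dashed lines mark 2-fold. FST and INHBA reach the dashed lines, at 2.55-fold higher and 2.00-fold lower, and the members lie between -0.46 and 0.47.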

How the data were processed

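A single RNA sample of each substate was hybridised as Cy3-labelled complementary RNA to SurePrint G3 arrays. The authors deposited the scanner output, in which each spot has a processed intensity with its error. Background and spatial trends had been removed, per the file headers, by Feature Extraction 11.5.1.1. A matrix of log2 values shifted by the 75th percentile was deposited too and differed from the values used here by a constant per array within 0.01 for 100% of the probes. Signals under 1 were set to 1 (0 signals were), spots flagged as outliers were dropped, the log2 signals of repeated spots were averaged, and the 75th percentile over non-control probes was subtracted. Flags for background and saturation were read as deposited. The Z-score was the difference minus its mean over all probes, divided by its SD, after the study's methods. A probe well above background on 1 array was given a bound against the higher of its own dim value and the lowest signal well above background there. Probes were named through RefSeq accessions in a gene table of GRCh38.p14, whereas the array was annotated on hg19, so no probe or gene coordinates are given and the promoter windows carry the coordinates of GRCh38.p14. Probes annotated only by Ensembl transcripts were not named. Python 3.11.15 with pandas 2.3.3, and limma 3.58.1 in R 4.3.3, were used, and the steps were tested on simulated data. The members, the gene lists and the rules for naming (the members, pathway genes past 2-fold or the Z-score limits, and the 4 largest differences either way) were chosen with earlier results of these data known. Alternatives were loess centring (span 0.3), quantile normalisation, centring on the median, normexp correction (offset 50), outlier spots kept, the deposited matrix, scaling before the floor, other populations or SDs for the Z-score, and other summaries of a gene's probes. Normexp was run on the median spot signal, as the scanner files read here held no column of mean signal. With 1 array per group no p-value is given, and the number of arrays limits the precision.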

Additional observations from a re-analysis of the deposited data

How the results depend on the processing

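No paired analysis was possible because a single array stood for each substate, without a replicate number to pair. The median difference of the members stayed between 0.04 and 0.12 under the settings run for it, and 0 member probes passed 2-fold under the 8 settings in which that was counted. Under normexp correction 1 member probe, that of CRIPTO, passed the Z-score limits at a difference of -0.46; under the other settings 0 did. The pathway genes past 2-fold numbered 1 (FST, without INHBA) in place of 2 under loess centring, normexp correction, quantile normalisation and centring on the median. The median difference of the pathway genes was 0.15 with all named probes in place of 0.06, and -0.01 with only the brightest probe of each gene. Of the 100 single member differences under an alternative, 13 moved by more than the typical spot noise of 0.07, and only FOXH1 changed sign. Many of the 100 could not move, so this share does not measure stability. The 9 genes with 1 probe have the same value under every summary of a gene's probes. Scaling before the floor had no signal under the floor to act on. Apart from LEFTY2 with its brightest probe, the moves came under quantile normalisation, loess centring and normexp correction. Loess centring took CRIPTO to -0.63, LEFTY1 to 0.33 and the gap between LEFTY1 and NODAL to 0.73. Normexp took NODAL to -0.20 and that gap to 0.57. The cause of these shifts was not tested. Keeping outlier spots, the deposited matrix and scaling before the floor changed no member difference by more than the spot noise. Single arrays leave the spread between cultures unmeasured.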
